A study of Mus musculus with 6 samples.

Results

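The Slc25 family holds the carriers that move metabolites across the inner mitochondrial membrane, and a few relatives in other membranes. They were taken as every gene of the count table whose symbol is Slc25a followed by a number, a rule that uses no measured value. The rule gave 47 of the 25239 genes, and 33 of them had a count in at least 1 library. The libraries were made with Smart-seq3, a full-length single-cell method primed on poly(A), from mouse oocytes arrested before meiosis resumes, at the germinal vesicle (GV) stage. The mice were female CD-1, an outbred strain, of 4 to 6 weeks. Cumulus-oocyte complexes were injected with water (3 libraries) or with a mixture of phthalate metabolites (3 libraries). Both groups were then cultured in the same maturation medium with fetal bovine serum, follicle-stimulating hormone and sodium pyruvate. The labels give neither the members nor the dose of the mixture.

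Each library is called an oocyte here, after its title. Animals and cultures of origin are not named in the labels. A group is therefore 1 sample, and differences between the groups were not tested. Group values are sums of counts over the 3 oocytes, with the value of each oocyte beside them. Intervals are 95% exact intervals and cover counting error only. CPM is a count divided by the total gene count of its library, times 1000000.

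Mitochondrial carriers are small membrane proteins made from nuclear genes, imported from the cytosol and inserted into the inner membrane. Their substrates are ATP and ADP, phosphate, carboxylic acids, amino acids, cofactors and iron, so they connect the respiratory chain and the citrate cycle to the rest of the cell. Oocytes take up little glucose and rely on mitochondrial oxidation of pyruvate, and the ATP made in the mitochondrion leaves it through the ADP/ATP exchangers of this family.

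The libraries held between 252267 and 300917 gene counts each. All 12 oocyte markers examined had counts, with a summed level from 28901 to 33482 CPM. The ratio of phthalate to water was above 1 in 4 of them and below 1 in 8, and 1 was past 1.5-fold lower, as were 8.14% of the genes with enough counts to be compared. That 1 was Kit, the receptor of the oocyte for Kit ligand, with 48, 45 and 86 counts in the water oocytes, against 34, 33 and 43 in the phthalate oocytes. The groups overlapped in CPM, and the log2 ratio was -0.63 (-0.99 to -0.28). Of 20 cumulus and granulosa markers, 9 were at 0 in all libraries, Amh, Amhr2 and Foxl2 among them. The summed level of the 20 was 145, 76.4 and 45.8 CPM in the water oocytes, against 75.3, 91.5 and 36.4 CPM in the phthalate oocytes, mostly from Nr5a2. The share of Rn45s, the ribosomal RNA precursor, was 2.02% to 2.35% in the water oocytes, against 2.89% to 3.54% in the phthalate oocytes. Its part in the values below was not tested, other than by leaving it out of the totals.

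Summed over all members, the carriers did not differ between the groups beyond counting error. Water oocytes 1, 2 and 3 held 308, 360 and 350 carrier counts, which are 1143, 1196 and 1233 CPM. Phthalate oocytes 1, 2 and 3 held 281, 327 and 340, or 1114, 1108 and 1237 CPM. The ranges of the groups overlapped, and the highest and the lowest oocyte were both in the phthalate group. The group sums were 1018 counts for water (95% Poisson interval 956 to 1083) and 948 for phthalate (889 to 1010). The ratio of phthalate to water was 0.967 (0.885 to 1.06).

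Of the 47 members, 14 had no count in any library, 20 had from 2 to 44 counts in all and did not pass the filter on low counts, and 13 passed it. The filter asks for about 10 counts in 3 libraries, and 4644 genes of the table passed. Between 21 and 27 members had a count in a given oocyte. The lowest number, 21, was that of phthalate oocyte 3, where the other oocytes had 25 to 27. After thinning to 252267 counts the numbers were 25.9, 25.7 and 26.8 in the water oocytes, against 25.0, 26.8 and 21.0 in the phthalate oocytes.

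Some members without a count have a relative that was detected. The ornithine carrier Slc25a15 was present and its relative Slc25a2 was at 0. Mitoferrin 2 (Slc25a28), an iron carrier, was present and mitoferrin 1 (Slc25a37), the form known from red cell precursors, was at 0. Among the ATP-Mg/phosphate carriers, Slc25a23 had 28 counts in all and Slc25a25 had 7, while Slc25a24 was at 0, as was Slc25a41. Slc25a14, an uncoupling protein-like carrier, had 71 counts against 2 for Slc25a30 and 0 for Slc25a27. The other members at 0 were Slc25a21, Slc25a29, Slc25a34, Slc25a42, Slc25a43, Slc25a45, Slc25a47, Slc25a53 and Slc25a54. A sum of 0 over all libraries allows a level of up to 1.79 CPM (3 counts), so these genes were not detectable at this depth.

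Levels of different genes were compared as CPM per kilobase of the longest transcript in GENCODE M21. On this scale the 4 highest carriers, as means over the 6 oocytes, were Slc25a5 (87.8), Slc25a17 (62.3), Slc25a31 (61.0) and Slc25a4 (47.3). They were followed by Slc25a48 (31.7), Slc25a15 (25.2), the citrate carrier Slc25a1 (22.7), Slc25a14 (22.4) and the S-adenosylmethionine carrier Slc25a26 (20.2), all among the first 10. Of these, 3 are ADP/ATP exchangers, and Slc25a17 is the carrier of coenzyme A, FAD and NAD in the peroxisome rather than the mitochondrion. Neighbours in this order overlapped over the oocytes. The lowest oocyte for Slc25a5 (59.7) lay above the highest for Slc25a48 (38.8), whereas Slc25a31 (46.4 to 103) and Slc25a4 (18.9 to 75.1) overlapped with Slc25a5 (59.7 to 117). The order depended on the transcript length used. With the median length of a gene's transcripts, Slc25a17 was first at 171, and 6 of the first 10 genes stayed among the first 10. The phosphate carrier Slc25a3 stood at 12.7 with its longest transcript of 4039 bases and at 37.6 with its median length of 1368. The median over 12543 genes with a count and a length was 5.10, and 19 members lay above it.

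**Figure D1:**
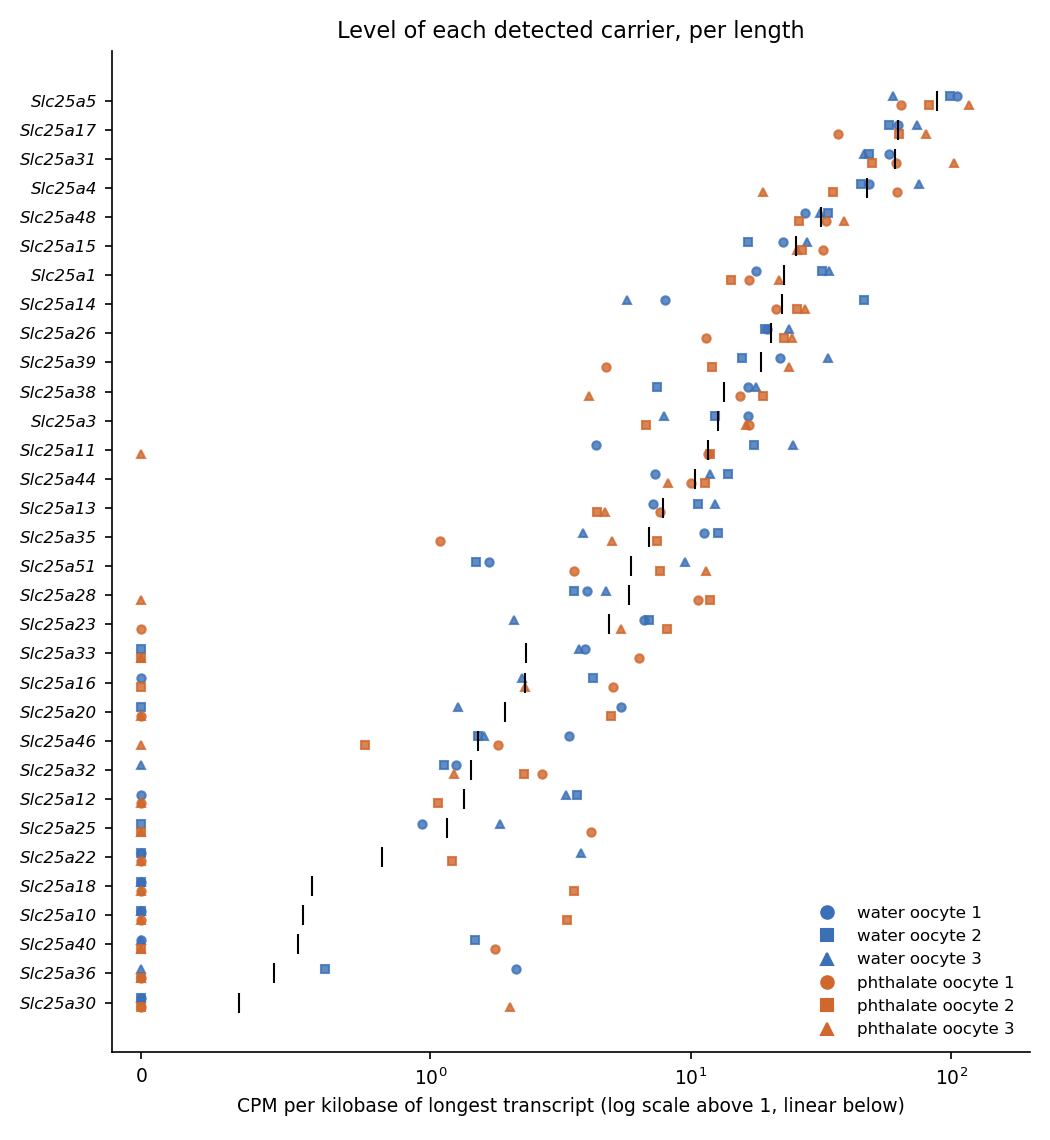
CPM per kilobase of the longest transcript (horizontal, log scale above 1 and linear below) for the carriers with a count, 1 of which is not shown; each point is 1 oocyte and each black bar the mean of 6. Slc25a5 had the highest mean, 87.8, and the lower part of the order holds genes with 0 counts in several oocytes.

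The ADP/ATP exchangers trade matrix ATP for cytosolic ADP. Mice have 3 such genes: Slc25a4 (ANT1), known from heart and muscle, Slc25a5 (ANT2), known from dividing cells, and Slc25a31 (ANT4), known from male germ cells, where it is needed for meiosis. In the RefSeq table of GRCm38.p6, the build that the submitters' processing notes call mm10, Slc25a4 lies on chromosome 8 (46207168 to 46211062), Slc25a5 on chromosome X (36795597 to 36798808) and Slc25a31 on chromosome 3 (40708871 to 40726094). No other RefSeq gene overlaps them. The RefSeq table lists a pseudogene of Slc25a5 on chromosome 14, and how reads shared with it were counted is not given in the sources used here.

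The 250 bases before the RefSeq start of each exchanger gene are shown because these genes share a substrate and differ in the tissues they are known from. Capitals mark the E-box CACGTG and the E2F-like motif TCCCGC, searched on both strands.
Slc25a4, chr8:46211063-46211312, minus strand: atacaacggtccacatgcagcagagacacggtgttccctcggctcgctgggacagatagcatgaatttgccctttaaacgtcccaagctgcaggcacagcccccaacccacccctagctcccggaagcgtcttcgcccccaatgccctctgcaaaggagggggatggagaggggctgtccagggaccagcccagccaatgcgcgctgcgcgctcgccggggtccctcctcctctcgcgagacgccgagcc
Slc25a5, chrX:36795347-36795596, plus strand: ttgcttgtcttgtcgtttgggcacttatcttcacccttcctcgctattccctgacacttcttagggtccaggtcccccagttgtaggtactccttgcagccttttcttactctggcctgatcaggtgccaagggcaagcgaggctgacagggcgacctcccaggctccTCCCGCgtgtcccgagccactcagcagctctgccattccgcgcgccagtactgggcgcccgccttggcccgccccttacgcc
Slc25a31, chr3:40708621-40708870, plus strand: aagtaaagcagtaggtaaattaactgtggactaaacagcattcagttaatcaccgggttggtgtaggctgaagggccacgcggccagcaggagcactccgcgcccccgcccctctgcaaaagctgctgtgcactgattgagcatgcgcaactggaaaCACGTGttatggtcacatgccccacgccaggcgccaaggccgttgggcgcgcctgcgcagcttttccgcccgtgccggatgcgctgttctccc

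The windows held 18 CG dinucleotides in Slc25a4, 14 in Slc25a5 and 18 in Slc25a31, where the median over 32851 RefSeq promoter windows of the same length was 6. At least 14 were found in 29.4% of these windows and at least 18 in 21.7%. The window of Slc25a31 held 1 E-box, which 6.0% of the windows hold, and that of Slc25a5 held 1 E2F-like motif, which 16.9% of them hold. The window of Slc25a4 held neither. These are matches of letters, and no factor binding was measured.

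For Slc25a31, water oocytes 1, 2 and 3 held 33, 31 and 28 counts and phthalate oocytes 1, 2 and 3 held 33, 31 and 60. In CPM these are 122, 103 and 98.7 against 131, 105 and 218. Phthalate oocyte 3 stood well above the other 5, which lay close together, and the groups overlapped. The log2 ratio of phthalate over water, from sums of 92 and 124 counts, was 0.50 (0.10 to 0.91). Even values dominated the counts of the family, although only 2 of the 6 counts of Slc25a31 itself were even. With counts halved to read pairs the interval was -0.07 to 1.09, which holds 0. Without phthalate oocyte 3 the ratio was 0.088. That oocyte had the highest scaled count in 6 of the 13 members that passed the filter on low counts. Its median deviation from the other oocytes was 0.45 on the log2(scaled count + 2) scale, where the others had from -0.15 to 0.19. The scaling factor of that oocyte, 0.935, was the lowest, which raises its scaled counts in all genes. How often it was the highest among all genes was not measured, so these values are not particular to the carriers.

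Slc25a4 had 25, 26 and 41 counts in the water oocytes, against 30, 20 and 10 in the phthalate oocytes, which are 92.8, 86.4 and 144 CPM against 119, 67.8 and 36.4. Here phthalate oocyte 3 was the lowest and water oocyte 3 the highest, and the groups overlapped. The log2 ratio was -0.54 (-1.04 to -0.06), from 92 and 60 counts, and on read pairs the interval was -1.26 to 0.15. The ratio was -0.27 without phthalate oocyte 3, likewise -0.27 without water oocyte 3, and -1.0 without phthalate oocyte 1.

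Slc25a5 had 35, 37 and 21 counts in the water oocytes, against 20, 30 and 40 in the phthalate oocytes, or 130, 123 and 74.0 CPM against 79.3, 102 and 145. The oocytes of either group spread widely around nearly the same mean. The log2 ratio was 0.02 (-0.41 to 0.46). It was -0.28 without phthalate oocyte 3 and 0.21 without phthalate oocyte 1.

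Together the exchangers were at 345, 312 and 317 CPM in the water oocytes, against 329, 275 and 400 CPM in the phthalate oocytes, with a ratio of 1.03 (0.866 to 1.22). Their proportions differed more than their sum. Slc25a31 made up 35.5%, 33.0% and 31.1% of exchanger counts in the water oocytes, against 39.8%, 38.3% and 54.5% in the phthalate oocytes. Each phthalate oocyte was above each water oocyte in this share, whereas the scaled counts of Slc25a31 itself overlapped, and how often such a share of 3 genes separates the groups was not measured. The exact binomial interval of water oocyte 1 (25.8% to 46.1%) held the values of phthalate oocytes 1 and 2. Over the sums the share was 33.2% (27.7% to 39.1%) in water and 45.3% (39.3% to 51.4%) in phthalate, and on read pairs the intervals overlapped, at 25.5% to 41.9% and 36.7% to 54.0%. The difference of the shares was 12.0 percentage points, and 5.81 without phthalate oocyte 3. Per kilobase, Slc25a31 made up 26.0% of the exchangers in water and 36.0% in phthalate, Slc25a4 28.8% and 19.2%, and Slc25a5 45.2% and 44.8%. This share was chosen for description after the values were seen.

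**Figure D2:**
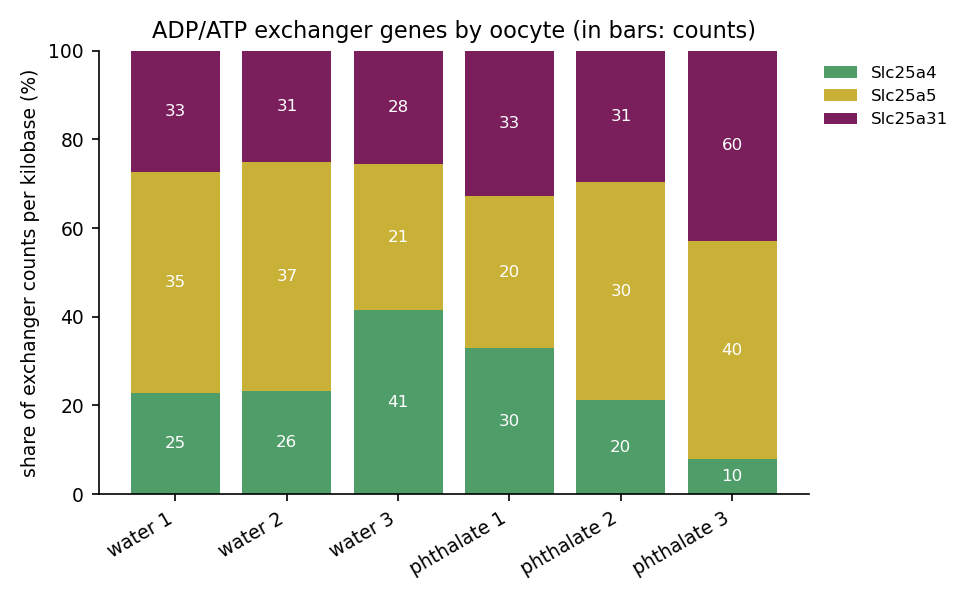
Share of each ADP/ATP exchanger in exchanger counts per kilobase (vertical, %) for the 6 oocytes, with the counts printed in the bars. Slc25a4 had 10 counts and Slc25a31 had 60 in phthalate oocyte 3, the lowest and highest of their genes.

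Slc25a17, the peroxisomal cofactor carrier (chromosome 15, 81318921 to 81360765), had 29, 30 and 36 counts in the water oocytes, against 16, 32 and 38 in the phthalate oocytes. These are 108, 99.7 and 127 CPM against 63.4, 108 and 138. Phthalate oocyte 1 was the lowest, and the other 5 lay together. The log2 ratio was -0.07 (-0.51 to 0.36), and it was 0.18 without phthalate oocyte 1.

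Slc25a15 (chromosome 8, 22375550 to 22398621) exchanges ornithine for citrulline and is known from the urea cycle. It had 27, 22 and 35 counts in the water oocytes, against 36, 35 and 31 in the phthalate oocytes, or 100, 73.1 and 123 CPM against 143, 119 and 113. Only water oocyte 3 reached the phthalate range. The log2 ratio was 0.35 (-0.08 to 0.79), from 84 and 102 counts, and leaving out 1 oocyte gave values from 0.18 to 0.55.

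Slc25a48 (chromosome 13, 56437960 to 56472367) is a carrier that has been studied little. It had the narrowest range of CPM among the 6 most counted members, with 25, 34 and 30 counts in the water oocytes, against 28, 26 and 36 in the phthalate oocytes. In CPM these are 92.8, 113 and 106 against 111, 88.1 and 131, and the groups overlapped. The log2 ratio was 0.09 (-0.35 to 0.53). No other RefSeq gene overlaps Slc25a17, Slc25a15 or Slc25a48.

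The genes described so far in every oocyte are the 6 members with a mean count of at least 20, and 0 of the 6 was past 1.5-fold in either direction, where 8.12% of the 2784 genes at that depth were. Of the 13 members that passed the filter, 6 had a ratio above 0 and 7 below. The log2 ratios ran from -0.77 to 0.50 around a median of -0.050, and the median of all 4644 genes was 0.0089. Past 1.5-fold were 2 of the 13, both lower in the phthalate group, where 15.1% of all genes passing the filter were past it in either direction, 8.14% lower and 6.96% higher. The share of the members in either direction was near this background, with 2 lower and 0 higher. In 0 of the 13 did the oocytes of the groups separate without overlap, where 10.1% of all genes did. The median of the 13 turned to 0.069 without water oocyte 2 and to 0.096 without phthalate oocyte 1, and 0 of the 13 were past 1.5-fold without water oocyte 3.

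**Figure D3:**
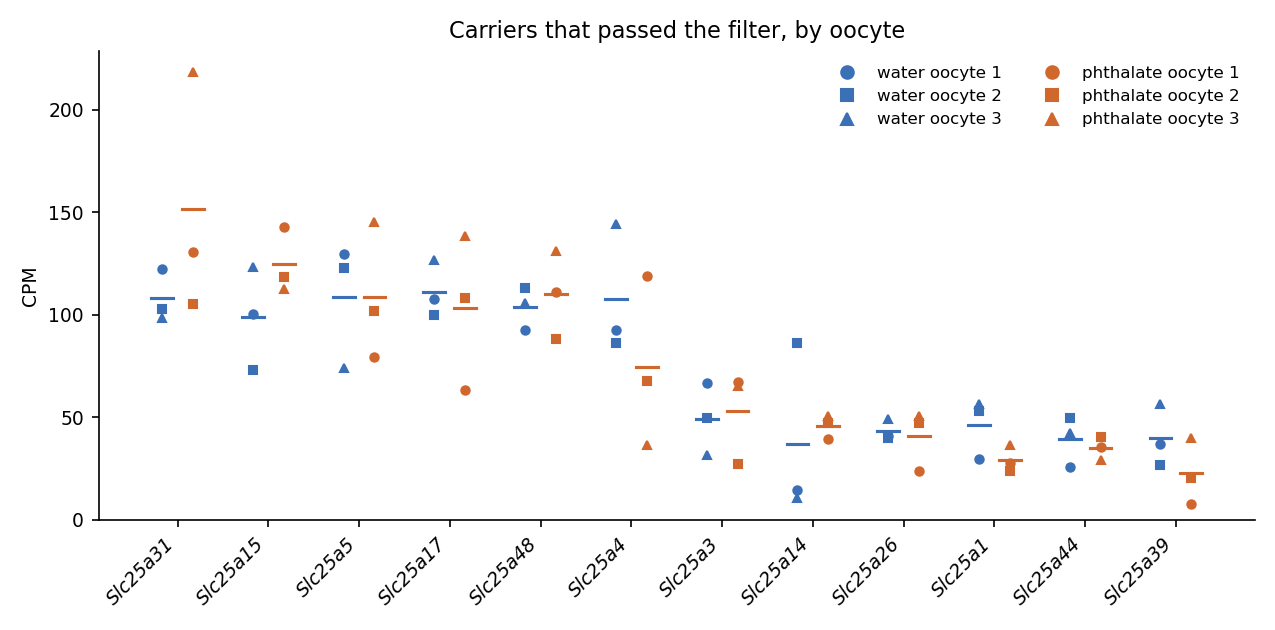
CPM (vertical) of the 13 carriers that passed the filter, 1 of which is not shown; points are oocytes and bars the mean of 3. The groups overlap in each gene plotted, and the highest point is Slc25a31 in phthalate oocyte 3, at 218 CPM.

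**Figure D4:**
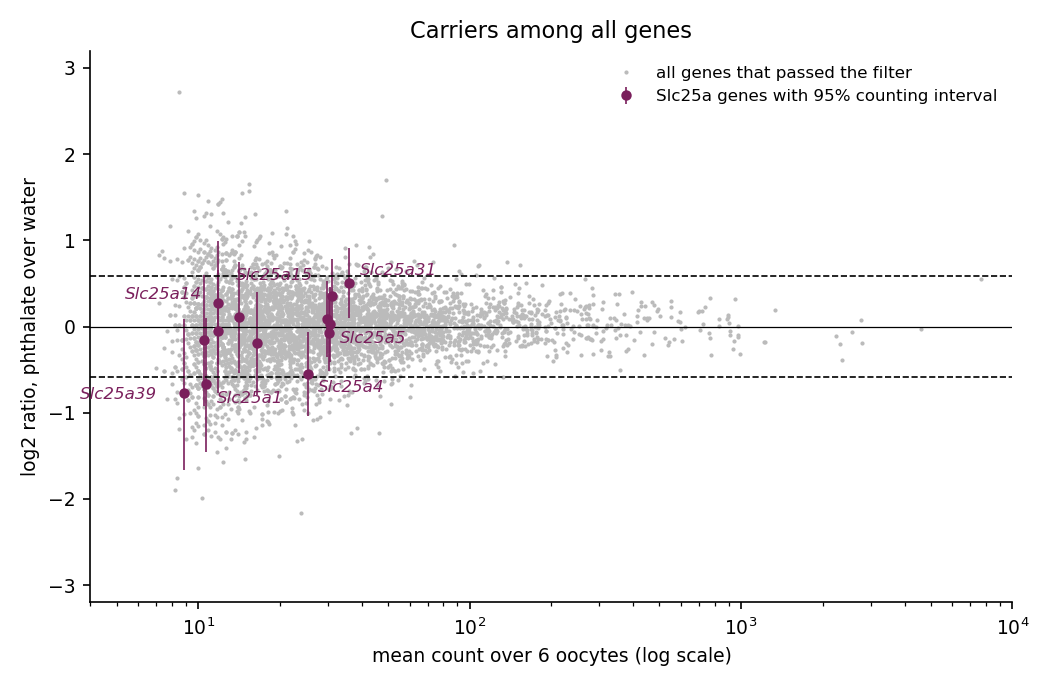
Log2 ratio of phthalate over water (vertical) against mean count (horizontal, log scale) for 4644 genes in grey and the 13 carriers in purple with 95% counting intervals; dashed lines mark 1.5-fold. The carriers span -0.77 to 0.50, within the cloud of genes of like abundance.

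The members past 1.5-fold were Slc25a39 and Slc25a1, named here because of their values. Slc25a39, which is linked to the import of glutathione into mitochondria, had 10, 8 and 16 counts in the water oocytes, against 2, 6 and 11 in the phthalate oocytes. Phthalate oocytes 1 and 2 lay below all water oocytes, and phthalate oocyte 3 lay within the water range. Its log2 ratio was -0.77 (-1.66 to 0.08), and it was -0.38 without phthalate oocyte 1 and -1.48 without phthalate oocyte 3. Slc25a40, its close relative, had 2 counts in each group.

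Slc25a1 exports citrate to the cytosol, where it feeds the synthesis of fatty acids and acetyl-CoA. It had 8, 16 and 16 counts in the water oocytes, against 7, 7 and 10 in the phthalate oocytes, with CPM of 29.7, 53.2 and 56.4 against 27.7, 23.7 and 36.4. Only phthalate oocyte 3 reached above the lowest water oocyte. Its log2 ratio was -0.66 (-1.46 to 0.10), and leaving out 1 oocyte gave values from -0.91 to -0.50.

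Members were also summed by class, mostly by the kind of substrate, which brings in those with few counts. The carboxylate class, 6 genes of which 4 had a count, was lower in the phthalate group. It holds carriers of citrate and dicarboxylates together with Slc25a34 and Slc25a35, whose substrates are not known. Its sum was at 77.9, 130 and 113 CPM in water oocytes 1, 2 and 3 and at 51.5, 78.0 and 54.6 CPM in phthalate oocytes 1, 2 and 3. The groups touched only where phthalate oocyte 2 and water oocyte 1 met. The ratio was 0.576 (0.401 to 0.820), from sums of 92 counts (Poisson interval 74.2 to 113) and 51 (38.0 to 67.1). On read pairs the interval was 0.348 to 0.970. The members behind the sum were Slc25a1, the oxoglutarate/malate carrier Slc25a11 (23 and 11 counts in the water and phthalate group), Slc25a35 (29 and 14), and the dicarboxylate carrier Slc25a10 (0 and 2). Without Slc25a34 and Slc25a35 the ratio was 0.610 (0.395 to 0.930), from 63 and 37 counts, and on read pairs the interval reached 1.07. In RefSeq, Slc25a11 shares 302 bases with Rnf167, which had 51 counts in all, and Slc25a35 shares 33 bases with Rangrf, which had 14. Leaving out 1 oocyte gave log2 ratios from -1.02 to -0.63 around the value of -0.80 for all 6 genes. The class was singled out as the one with the lowest ratio among the 6 classes with at least 50 counts.

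The malate-aspartate shuttle carries reducing equivalents into the mitochondrion, through Slc25a11 and the aspartate/glutamate carriers Slc25a12 (aralar) and Slc25a13 (citrin). The 3 genes were put together after their values were seen, and none of them passed the filter. Slc25a11 had 2, 9 and 12 counts in the water oocytes, against 5, 6 and 0 in the phthalate oocytes. Slc25a12 had 0, 7 and 6 against 0, 2 and 0, and Slc25a13 had 6, 10 and 11 against 6, 4 and 4. Water oocyte 1 was low for each of the 3 and lay with the phthalate oocytes.

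Summed, the shuttle carriers were at 29.7, 86.4 and 102 CPM in the water oocytes, against 43.6, 40.7 and 14.5 CPM in the phthalate oocytes. The ratio was 0.445 (0.273 to 0.709), from 63 and 27 counts, and on read pairs the interval was 0.224 to 0.876. These intervals do not allow for the choice of the genes by their values, and how low other genes picked in this way would fall was not measured. Slc25a11 also enters the carboxylate sum, so that sum and this one share its counts. Leaving out 1 oocyte gave log2 ratios from -1.52, without water oocyte 1, to -0.81, without phthalate oocyte 3. Of the enzymes of the shuttle, the cytosolic malate dehydrogenase Mdh1 had 71 and 45 counts in the water and phthalate group, with 27, 24 and 20 against 4, 18 and 23 in the oocytes. Its mitochondrial counterpart Mdh2 had 24 and 28 counts. The aminotransferases did not share one direction, with 39 and 34 counts for Got1 and 53 and 62 for Got2.

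Of the other classes, 4 had ratios near 1. The ratio was 1.03 (0.882 to 1.20) for the 8 adenine nucleotide and phosphate carriers, 0.946 (0.788 to 1.13) for the 11 cofactor and nucleotide carriers and 0.955 (0.771 to 1.18) for the 9 amino acid carriers. For the 7 orphan or other carriers, of which Slc25a48 holds most counts, it was 0.996 (0.741 to 1.34). The 3 uncoupling protein-like carriers had a ratio of 1.26 (0.774 to 2.06), from 33 and 40 counts, with 26 of the 33 in water oocyte 2. For the 2 iron carriers it was 1.84 (0.893 to 3.95), from 13 and 23 counts, all of Slc25a28. Slc25a20, the carnitine/acylcarnitine carrier that admits fatty acids for oxidation, had 5 and 4 counts in the water and phthalate group.

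**Figure D5:**
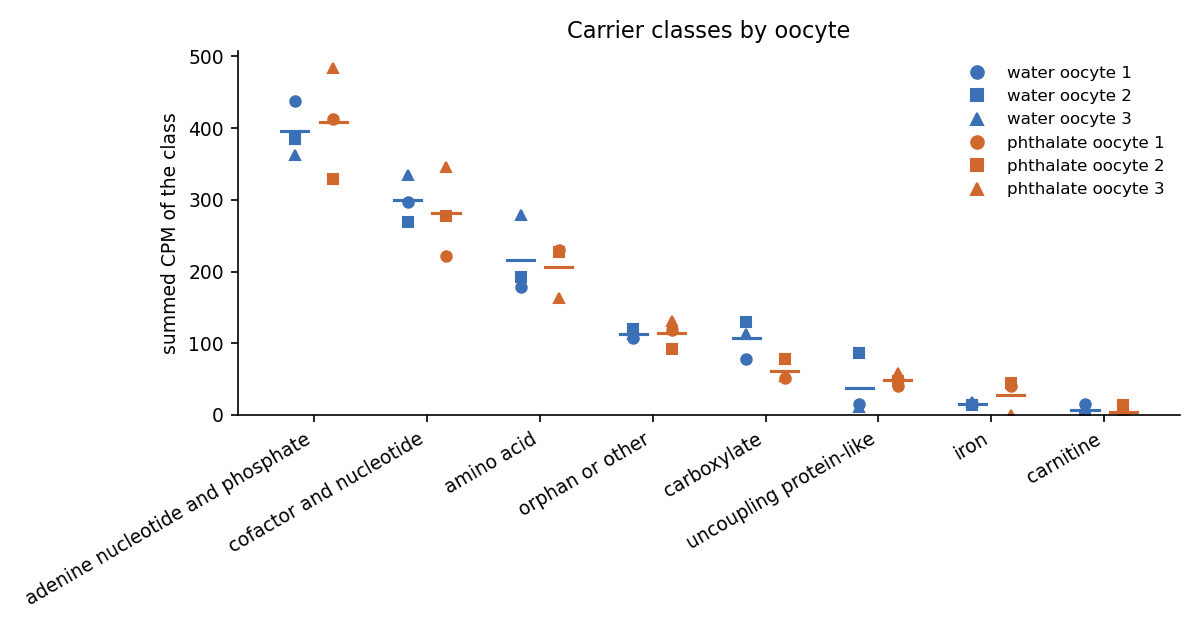
Summed CPM (vertical) of 8 carrier classes (horizontal); points are oocytes and bars the mean of 3. Carboxylate carriers lie at 77.9 to 130 CPM in the water oocytes, against 51.5 to 78.0 CPM in the phthalate oocytes, and the remaining classes overlap more widely.

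In some members 1 oocyte set the value of its group. Slc25a14 had 4, 26 and 3 counts in the water oocytes, against 10, 14 and 14 in the phthalate oocytes. The phthalate oocytes lay together, between the high water oocyte 2 and the low water oocytes 1 and 3. Its log2 ratio of 0.28 (-0.44 to 0.99) became 1.90 without water oocyte 2. Slc25a28 had 4, 4 and 5 counts in the water oocytes, against 10, 13 and 0 in the phthalate oocytes, so that its phthalate oocytes lay on both sides of the water oocytes. Slc25a51, the NAD carrier, had 2, 2 and 12 counts against 4, 10 and 14.

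Among the remaining members that passed the filter, Slc25a3, Slc25a26 and the branched-chain amino acid carrier Slc25a44 had log2 ratios of 0.11, -0.05 and -0.16. Slc25a26 shares 131 bases with Lrig1, which had 206 counts in all, and the use of strand in counting is not given in the sources used here. The other detected members had 44 counts or fewer. Slc25a32, which carries folate or FAD, had 2, 2 and 0 counts in the water oocytes, against 4, 4 and 2 in the phthalate oocytes, sums of 4 and 10. The groups separated with TMM-scaled totals but not in CPM. In CPM, water oocytes 1 and 2 were at 7.42 and 6.65 and phthalate oocyte 3 was at 7.27, so that the groups overlapped.

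With the filter removed, 29 members had more than 3 counts in at least 1 group, and 11 of them were past 1.5-fold. Of the 11, 8 were lower in the phthalate group and 3 higher. Among all 10319 genes under the same condition 36.3% were past it, 19.5% in the lower and 16.8% in the higher direction. The share of the members past it in either direction was again near the background, while their split leaned more to the lower side. This lean was not tested.

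The carriers reach the inner membrane through the outer pore, the small TIM chaperones and the TIM22 complex. Of 13 genes of this route, all had a count and 7 passed the filter, with 1 past 1.5-fold higher and 1 lower and a median log2 ratio of 0.016. The higher one was the pore subunit Tomm40, at 0.63 (-0.01 to 1.28), from 36 and 53 counts. The lower one was the chaperone Timm10, at -0.69 (-1.30 to -0.09), from 66 and 39. The groups overlapped in both genes, and on read pairs the intervals of both held 0. Of 20 other transport genes of the mitochondrial membranes, 9 passed, with 1 past the fold in each direction and a median of -0.18. Among all genes passing the filter 15.1% were past it in either direction. Abcb8, an ATP-binding cassette transporter of the inner membrane, had 22, 14 and 21 counts in the water oocytes, against 34, 29 and 36 in the phthalate oocytes, which did not overlap. Its log2 ratio was 0.87 (0.38 to 1.37, and 0.21 to 1.63 on read pairs).

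Of 15 enzymes that use or supply the carriers' substrates, 7 passed the filter, with 0 past 1.5-fold higher and 2 lower, where 8.14% of all genes passing the filter were lower, and a median of -0.055. The lower ones were Mdh1, at -0.59 (-1.16 to -0.03), and Alas1, the first enzyme of heme synthesis. Alas1 was at -0.81 (-1.48 to -0.17), from 59 and 32 counts. The groups overlapped in both genes, and on read pairs the intervals of both held 0. Slc25a38, which imports glycine for heme synthesis, had 8, 4 and 9 counts against 7, 10 and 2. Some genes of the carrier superfamily go under other symbols. Ucp1, Ucp2 and Ucp3, the uncoupling proteins, were at 0 in all libraries, Mtch1 had 14 counts in all and Mtch2 had 29.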

How the data were processed

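The authors deposited 1 table of whole-number counts per gene symbol for 6 libraries, not normalized, with 92 ERCC spike-in rows that were left out. The submitters' processing notes name cutadapt, Trimmomatic, HISAT2, DESeq2 and the build mm10, with no role, order or version; the counting tool, annotation, strand and handling of molecular identifiers are not given in the sources used here. Per the labels' protocols, libraries were sequenced as read pairs of 150 bases. Of the 152 member values above 0, 68.4% were even, so both mates of a pair may have been counted and the intervals may be too narrow.

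Members, classes and lists were chosen with earlier results of these data known. Genes were filtered with filterByExpr of edgeR 4.0.16 (R 4.3.3; minimum count 10, minimum total 15). Ratios are group sums over totals scaled by TMM factors, with sums of 0 set to 3 counts and Clopper-Pearson intervals (95%); sums over several genes used unscaled totals. The code was tested on simulated data. Values in every oocyte are given for members with a mean count of at least 20 that are among the 10 highest per kilobase or past 1.5-fold, and for the ADP/ATP exchangers; others are named after their values were seen. For the other lists the same rule of count and fold held, and Tomm40, Timm10, Mdh1 and Alas1 were added after their values were seen. Alternatives were DESeq2 1.42.0 size factors, unscaled totals, means of CPM, other filters, other transcript lengths and leaving out each oocyte. Values of some single genes are not reported here, although they enter the counts and sums. Promoter sequences are RefSeq's (GRCm38.p6), and each exchanger matched 1 entry.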

Additional observations from a re-analysis of the deposited data

How the results depend on the processing

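Leaving out 1 oocyte gave from 0 to 3 carriers past 1.5-fold, with 0 when water oocyte 3 was left out, against 2 of 13. The count was 11 of 29 with no gene filter and 0 of 6 at a mean count of at least 20, because the genes tested change, and it was 2 with DESeq2 size factors, with library totals alone and with means of CPM. The median log2 ratio of the 13 ran from -0.19 to 0.096 over the oocytes left out and was above 0 without water oocyte 2 or phthalate oocyte 1. The summed log2 ratio of all carriers stayed below 0 under its alternatives, from -0.11 (without Slc25a31) to -0.017 (without phthalate oocyte 2), and was -0.033 with Rn45s out of the totals. The uncoupling protein-like class, at 0.33, ran from -0.11 to 1.94 and rested on water oocyte 2, whose absence gave 1.94. The carboxylate class, at -0.80, was at -0.71 without its members of unknown substrate, a setting chosen after the data were seen. Of the 10 highest members per kilobase, 6 stayed with median transcript lengths. No paired analysis was possible because the design, which treats each group as 1 sample, has no test to which a block could be added, and the labels do not say that equal numbers mark a shared animal or culture. Depth limits all of these values: 6 of the 47 members reached a mean count of 20, and there the counting interval of Slc25a5, around a log2 ratio of 0.02, still ran from -0.41 to 0.46.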
